A study of Mus musculus with 2 samples.

Results

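The genes of fat cell lipolysis were followed in epididymal white adipose tissue, a depot of visceral fat, of male C57BL/6 mice. They were chosen by gene symbol: Pnpla2, Lipe, Mgll, Abhd5, G0s2, Adrb3, Pde3b, Prkar2b and Aqp7, with every probe set annotated to 1 of these symbols alone. The rule found 18 probe sets for 8 of the 9 genes, out of 45037 probe sets on the array, and Adrb3 was not analysed here. One array came from a sample on normal chow and the other from a sample on a high-fat diet for 7 weeks, with the diets begun at 9 weeks of age. Whether a sample came from a single mouse or a pool is not stated here. The fat of the high-fat diet and the length of chow feeding are not given in the labels, and the labels name no allele for either sample.

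In a fat cell, stored triglyceride is cut in steps on the surface of the lipid droplet. Adipose triglyceride lipase takes off the first fatty acid, hormone-sensitive lipase the next, and monoglyceride lipase the last, which leaves glycerol. Catecholamines switch the pathway on through beta-adrenergic receptors, cyclic AMP and protein kinase A, and insulin restrains it by having cyclic AMP broken down. Glycerol then leaves the cell through an aquaporin channel.

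Each diet had 1 array, so the variation from mouse to mouse is unknown, no test of the diet was possible, and "higher" and "lower" describe these 2 samples. The values are linear intensities on the authors' own scale, and differences are high-fat diet minus chow in log2 units. The 40th percentile of each array, 28.6 for chow and 27.9 for high fat, served as a floor for weak signal. Of the 18 probe sets 16 cleared the floor on both arrays and 2 on neither. As a yardstick of probe error, probe sets of the same gene scattered around their gene's mean difference with a pooled SD of 0.32 over 5196 genes, and of 0.20 over the 534 genes with a mean intensity of 400 or more. This SD contains no difference between animals. Probe sets are compared only with themselves across the diets, because the brightness of different probes does not rank transcripts.

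In probe intensity, the genes of the glycerol channel and of a protein kinase A subunit were higher on the high-fat diet. The gene of the last lipase was higher in its 3 bright probe sets, short of 1.5-fold, and lower in a dim one. That of the coactivator of the first lipase was lower. That of the first lipase itself was nearly the same on both arrays. Taking for each gene its brightest measured probe set, 5 of the 8 genes were higher by 0.1 or more, 2 were lower by as much, and 1 lay within 0.1. By sign alone 6 were higher, Pnpla2 by 0.0001, and 2 lower. Of all 14066 measured genes 6585 were higher and 7439 lower. Of the 2007 genes with a mean intensity of 400 or more, 1121 were higher and 886 lower. The median difference of the 8 genes was 0.16, against -0.02 over all measured genes and 0.03 over those 2007 bright genes. At 1.5-fold or more, Prkar2b and Aqp7 were higher and Abhd5 was lower. Over all measured genes 5.82% were higher and 6.4% lower by this rule, 818 and 900 genes, a split that became 559 and 1354 after centring on reference genes. Among the 7 lipolysis genes with a mean intensity of 400 or more, 1 was higher and 1 lower, where 5.08% and 2.54% of all genes that bright were. At 2-fold or more there was only Aqp7, against 2.52% of all measured genes in either direction. With 8 genes and 1 array a diet, these counts are a description. In a piece of whole fat pad, fewer cells of a type and less RNA per cell cannot be told apart.

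**Figure D1:**
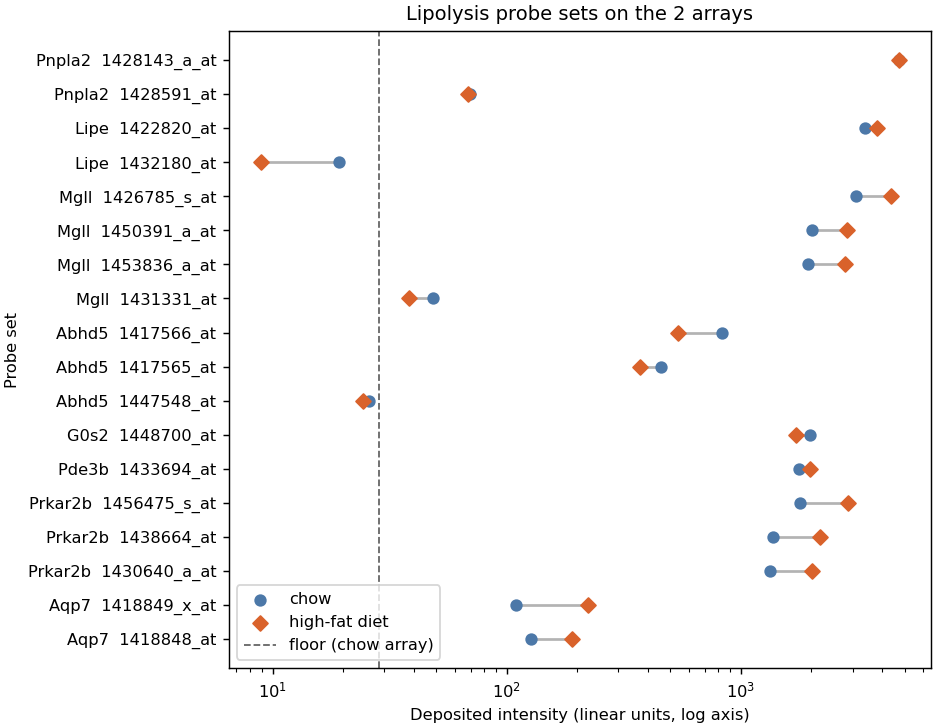
Deposited intensity (linear units on a log axis) of each of the 18 probe sets on the chow array (circles) and the high-fat diet array (diamonds), with the chow floor of 28.6 as a dashed line. The 3 bright Mgll probe sets, the 3 of Prkar2b and both of Aqp7 lie to the right on the high-fat diet, both Abhd5 probe sets above the floor lie to the left, and the bright Pnpla2 probe set has the same position on both arrays.

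Pnpla2 encodes adipose triglyceride lipase, which starts the breakdown of triglyceride. Its bright probe set, 1428143_a_at, read 4720.2 under chow and 4720.5 under high fat, a difference of 0.0001. Its dim probe set, 1428591_at, read 69.6 and 68, a difference of -0.03. Neither probe set separated the diets, and the sign of the Pnpla2 difference was set by the scaling: it was -0.07 after quantile normalization, -0.10 after centring on reference genes and -0.11 after lowess centring.

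Lipe encodes hormone-sensitive lipase, the enzyme that takes over at diglyceride. Its probe set 1422820_at read 3376.1 under chow and 3796.5 under high fat, 1.12-fold higher, a difference of 0.17. This is smaller than the probe SD of 0.20 for genes this bright. The other Lipe probe set, 1432180_at, stayed under the floor with 19.2 and 8.9 and gives no difference.

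Mgll encodes monoglyceride lipase, which frees glycerol from the last fatty acid. Its 3 bright probe sets moved together. Probe set 1426785_s_at read 3113.1 under chow and 4363.9 under high fat, a difference of 0.49 or 1.40-fold. Probe set 1450391_a_at read 2010.8 and 2850, a difference of 0.50. Probe set 1453836_a_at read 1926.1 and 2780.9, a difference of 0.53. All 3 were higher on the high-fat diet within 0.04 of each other, although just short of 1.5-fold. The fourth, 1431331_at, was close to the floor at 48.3 and 38.1 and differed the other way, by -0.34. It is the only Mgll probe set without a suffix that marks probes shared between transcripts, so with plain probe sets alone the sign of Mgll turns.

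The 3 lipases thus had differences of 0.0001, 0.17 and 0.49 in the order in which they act. The Mgll difference exceeded that of Pnpla2 by 0.49 and that of Lipe by 0.32. The distance to Lipe rests on a single Lipe probe set. Among genes with a mean intensity of 400 or more, Pnpla2 was at the 44.1st percentile of the differences, Lipe at the 72.0th and Mgll at the 92.5th.

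Abhd5 and G0s2 set the activity of the first lipase at the protein level. Abhd5, also called CGI-58, binds adipose triglyceride lipase and activates it, and perilipin holds it on the droplet until protein kinase A releases it. The brighter Abhd5 probe set, 1417566_at, read 831 under chow and 540.6 under high fat, 1.54-fold lower, a difference of -0.62. The second, 1417565_at, read 455.8 and 369.4, 1.23-fold lower, a difference of -0.30. Both were lower on the high-fat diet, but they lay 0.32 apart and only the brighter passed 1.5-fold. The third, 1447548_at, stayed under the floor with 25.7 and 24.2. The mean of the 2 stronger probe sets was -0.46, short of the 1.5-fold mark of 0.585. The brighter probe set was at the 2.09th percentile of the genes with a mean intensity of 400 or more.

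G0s2 encodes a small inhibitor of adipose triglyceride lipase. Its only probe set, 1448700_at, read 1978.5 under chow and 1711.4 under high fat, 1.16-fold lower, a difference of -0.21. This is about the size of the probe SD of 0.20 at that brightness. It was lower by -0.35 after quantile normalization. Against Pnpla2 on the same arrays, Abhd5 was lower by -0.62 and G0s2 by -0.21, so the activator and the inhibitor both had lower intensities beside a lipase whose own value did not differ.

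Pde3b and Prkar2b belong to the cyclic AMP side of the pathway. Pde3b encodes the phosphodiesterase through which insulin lowers cyclic AMP in fat cells. Its only probe set, 1433694_at, read 1777.8 under chow and 1975.8 under high fat, 1.11-fold higher, a difference of 0.15. This is within the probe SD. It was as low as 0.04 after quantile normalization.

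Prkar2b encodes the type II beta regulatory subunit of protein kinase A, the main regulatory subunit of white fat, which holds the catalytic subunit inactive until cyclic AMP binds. Probe set 1456475_s_at read 1790 under chow and 2859.1 under high fat, a difference of 0.68. Probe set 1438664_at read 1372.2 and 2171.6, a difference of 0.66. Probe set 1430640_a_at read 1331.9 and 2014, a difference of 0.60 or 1.51-fold. All 3 exceeded 1.5-fold and spanned only 0.08. Prkar2b was at the 96.4th percentile of genes with a mean intensity of 400 or more. It exceeded Pde3b by 0.52 on the same arrays. After centring on reference genes the difference was 0.58, just under the 1.5-fold mark.

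Aqp7 encodes aquaglyceroporin 7, the channel through which glycerol leaves the fat cell. Probe set 1418849_x_at read 109 under chow and 222.9 under high fat, 2.05-fold higher, a difference of 1.03. Probe set 1418848_at read 126.5 and 190.3, a difference of 0.59. Both were higher on the high-fat diet, and they lay 0.44 apart. Their mean log2 intensities were only 0.007 apart, so the choice of the brighter one was nearly a tie, and the 2-fold value comes from the probe set whose suffix marks probes that may also match other transcripts. Both lie in the range of mean intensity from 100 to 400, where the probe SD was 0.29. At 1.03 it was at the 99.0th percentile of all measured genes.

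**Figure D2:**
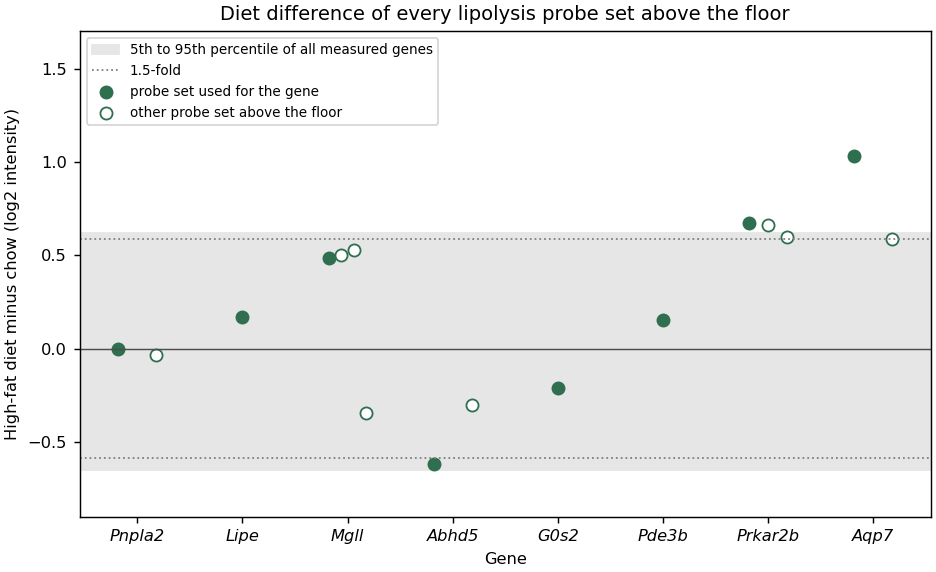
High-fat diet minus chow (log2 intensity) for each of the 16 probe sets that cleared the floor on each array, by gene; filled points are the probe set used for the gene and open points the others. The band holds the 5th to 95th percentile of all measured genes, -0.65 to 0.62, and the dotted lines mark 1.5-fold; all Prkar2b and Aqp7 points lie above the upper line, and 1 Abhd5 point lies below the lower one.

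Over the 16 probe sets that cleared the floor on both arrays, 11 were higher and 5 lower on the high-fat diet. Counted by gene rather than by probe set, 6585 of all measured genes were higher and 7439 lower. By 1.5-fold or more, 5 were higher, namely the 3 of Prkar2b and both of Aqp7, and 1 of Abhd5 was lower. Of all 24727 probe sets with signal above the floor on both arrays, 5.45% were higher and 5.99% lower by this rule. Probe sets of one gene share its transcripts and the same 2 samples, so they repeat the measurement of the array and not the mouse.

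Start-site regions of the lipolysis genes were read from RefSeq. The RefSeq table, on GRCm38.p6, held 11 start-site windows of 300 bases for 7 of the genes. Only for Mgll, Abhd5, G0s2 and Pnpla2 was a start site the end of the gene's own span. Of these, the 250 bases before it are printed for the gene that differed most in each direction. That is Mgll, higher in its 3 bright probe sets, and Abhd5, lower in both of its probe sets above the floor. The stretches are given 5′ to 3′ on the strand of the gene. Capitals mark an E-box (CACGTG), which basic helix-loop-helix factors bind, the half-site TGACG of a cyclic AMP response element, and the half-site AGGTCA of nuclear receptors, each searched on both strands, so that CGTCA and TGACCT are the same half-sites read from the other strand. The Mgll stretch is chr6:88724162-88724411 on the plus strand and the Abhd5 stretch chr9:122351366-122351615 on the plus strand.
Mgll: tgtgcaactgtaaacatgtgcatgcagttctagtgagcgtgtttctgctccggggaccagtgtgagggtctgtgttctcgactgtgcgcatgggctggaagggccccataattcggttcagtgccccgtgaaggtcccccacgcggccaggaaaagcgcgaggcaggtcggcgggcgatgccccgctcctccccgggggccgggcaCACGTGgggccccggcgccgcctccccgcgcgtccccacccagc
Abhd5: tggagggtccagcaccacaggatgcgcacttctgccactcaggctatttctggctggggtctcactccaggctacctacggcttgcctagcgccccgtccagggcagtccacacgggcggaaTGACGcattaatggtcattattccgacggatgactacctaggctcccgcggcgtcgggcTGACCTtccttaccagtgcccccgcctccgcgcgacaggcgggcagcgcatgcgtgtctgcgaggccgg

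An E-box lay 44 bases before the Mgll start site. It also occurred in a window of Prkar2b, 80 bases before that start site, and in a window of Lipe, 155 bases before that one. These 3 stretches are shown with 10 bases on each side of the E-box, which is in capitals: chr6:88724358-88724383 on the plus strand for Mgll, chr12:32061342-32061367 on the minus strand for Prkar2b and chr7:25396127-25396152 on the minus strand for Lipe.
Mgll: gggccgggcaCACGTGgggccccggc
Prkar2b: ttccggggatCACGTGggcgcgcggg
Lipe: cagggacgacCACGTGagggggcgga

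The E-box was thus in 3 of the 11 windows, and in 7.15% of all 32851 windows in the table. The differences of the 3 genes that hold it were 0.49, 0.68 and 0.17. Of the genes with windows that lack it, Aqp7 differed by 1.03, Pnpla2 by 0.0001, G0s2 by -0.21 and Abhd5 by -0.62. Whether the E-box goes with the differences was not tested. The nuclear receptor half-site was in 3 windows of 2 genes, Abhd5 and Aqp7, which differed in opposite directions, and in 16.3% of all windows. The Aqp7 windows overlap and share a site, so they are not separate occurrences. The cyclic AMP half-site TGACG was in 3 windows, those of Abhd5, G0s2 and the downstream start of Mgll, and in 20.8% of all windows. The full cyclic AMP response element TGACGTCA, which contains that half-site, was in none of the 11 and in 1.79% of all. The windows of 300 bases from which the 2 longer stretches come are richer in G and C than most. They hold 70.0% for Mgll and 67.7% for Abhd5 against a median of 52.7%. The windows with the E-box of Prkar2b and Lipe hold 75.0% and 61.0%. A match is a string of letters, not a bound site.

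Around these genes, the lists of the wider pathway were compared in the same way, by counts and medians. Little was measured of the catecholamine receptors: of 7 other adrenergic receptor genes listed, 2 had a named probe set and only Adra2c, an alpha receptor that lowers cyclic AMP, was measured, at 37 on chow and below the floor at 16.1 on the high-fat diet, at least 1.33-fold lower. The other probe sets of Adra2c, which has 4 in all, were below the floor on both arrays. Adrb1 was not analysed here. All 12 genes of G proteins and adenylyl cyclases were measured, with a median of 0.10. None differed by 1.5-fold or more in either direction, beside 5.82% higher and 6.4% lower of all measured genes. Adcy5, an adenylyl cyclase, had the largest difference there, from 358.8 to 534.5 or 1.49-fold higher, but its second probe set above the floor differed by only 0.07. Adcy3, another cyclase of fat cells, read 215.3 and 245, a difference of 0.19.

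Among receptors of other hormones that restrain or drive lipolysis, 4 of 11 measured genes were 1.5-fold or more higher and 1 was lower, beside 5.82% and 6.4% of all measured genes, with a median of 0.51. Of the 4, Gipr is a bound and Mc2r passes only just, at 1.501-fold. Ptger3, a receptor through which prostaglandin E2 lowers cyclic AMP, was 2.54-fold higher, from 261 to 661.9, and its other probe set cleared the floor on the high-fat array alone. Npr3, the clearance receptor that removes natriuretic peptides, was 1.57-fold higher, from 2138.6 to 3352.8, and its other probe sets differed by 0.92 and 1.01. Npr1, the receptor through which those peptides drive lipolysis by cyclic GMP, was 1.51-fold lower in its only probe set, from 56.2 to 37.3. Mc2r, the receptor of the lipolytic hormone ACTH, was higher by 0.59, from 231.1 to 346.9. Gipr, an incretin receptor, cleared the floor on the high-fat array alone, at 10 and 52.4, at least 1.83-fold higher. The list holds receptors of opposite action, so its median gives no direction of lipolysis, and it was 0.21 with plain probe sets alone.

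The 10 measured genes for the other subunits, anchors and inhibitors of protein kinase A had a median of -0.10. Of these 1 was 1.5-fold or more higher and none lower, beside 5.82% and 6.4% of all measured genes. Prkaca, the main catalytic subunit, read 680.5 and 726.2, a difference of 0.09. The other regulatory subunits Prkar1a, Prkar1b and Prkar2a differed by -0.13, 0.37 and -0.15. Pkia, an inhibitor of the kinase, was 1.65-fold higher in one probe set, from 56.8 to 93.7, and differed by -0.13 in the other. No test of Prkar2b against the other subunits was possible.

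The 12 measured phosphodiesterase genes besides Pde3b had a median of 0.12. Of these 3 were 1.5-fold or more higher and none lower, beside 5.82% and 6.4% of all measured genes. All 3 were dim or had another probe set that differed the other way. Pde4d, which breaks down cyclic AMP, was 1.97-fold higher, from 33.6 to 66.3. Pde7b was 1.52-fold higher, from 83.6 to 126.9, with -0.04 in the other one that cleared the floor on each array. Pde3a, the close relative of Pde3b, was at least 2.19-fold higher in a probe set that read 10.9 and 62.6, while its other measured probe set was above the floor only on chow.

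Droplet coat proteins decide how far the lipases reach the fat. Plin1, which holds Abhd5 at the droplet, was not analysed here. The 9 measured coat genes had a median of 0.13. Of these 2 were 1.5-fold or more higher and none lower, beside 5.82% and 6.4% of all measured genes. Plin2, the coat protein that rises with stored lipid in many cells, was 1.68-fold higher, from 1312.1 to 2197.8. Plin5, which is most abundant in oxidative tissues, was 2.04-fold higher, from 62.4 to 127.5, with 0.25 in its other probe set. Cidec, which fuses droplets into one large one, read 5143.1 and 6193.4, a difference of 0.27. This median was -0.01 after quantile normalization.

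The 13 measured genes of other neutral lipid hydrolases had a median of 0.08. None was 1.5-fold or more higher and 1 was lower, beside 5.82% and 6.4% of all measured genes. That gene, Ces1f, a carboxylesterase, was 1.94-fold lower in its only probe set, from 630.7 to 325. Lipoprotein lipase, encoded by Lpl, which works outside the fat cell, read 9272.1 and 9417.9, a difference of 0.02.

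Genes that handle glycerol and glycerol 3-phosphate differed in opposite directions. The 7 measured genes had a median of 0.29. Of these 1 was 1.5-fold or more higher and 1 lower, beside 5.82% and 6.4% of all measured genes. Pck1, the carboxykinase with which fat cells make glycerol 3-phosphate from pyruvate, was 1.64-fold higher, from 1370.1 to 2241.4, and 0.75 in its other bright probe set. Gpd2, the mitochondrial glycerol 3-phosphate dehydrogenase, was 2.25-fold lower, from 289.9 to 128.6, and -0.91 in the other probe set that cleared the floor on each array. Of the other aquaporins, Aqp1, a water channel of blood vessels, read 1751.2 and 1416.4, a difference of -0.31, and Aqp3 was below the floor on both arrays. Aqp9 and Aqp11 were higher, like Aqp7, in each probe set above the floor on both arrays. Aqp9 was dim, from 45.9 to 64.6 in the brighter probe set, and differed by 0.49 and 1.05. Aqp11 differed by 0.38 and 0.58. Gk, the glycerol kinase, was not analysed here. Taking the least different probe set of each gene, this median was -0.05.

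**Figure D3:**
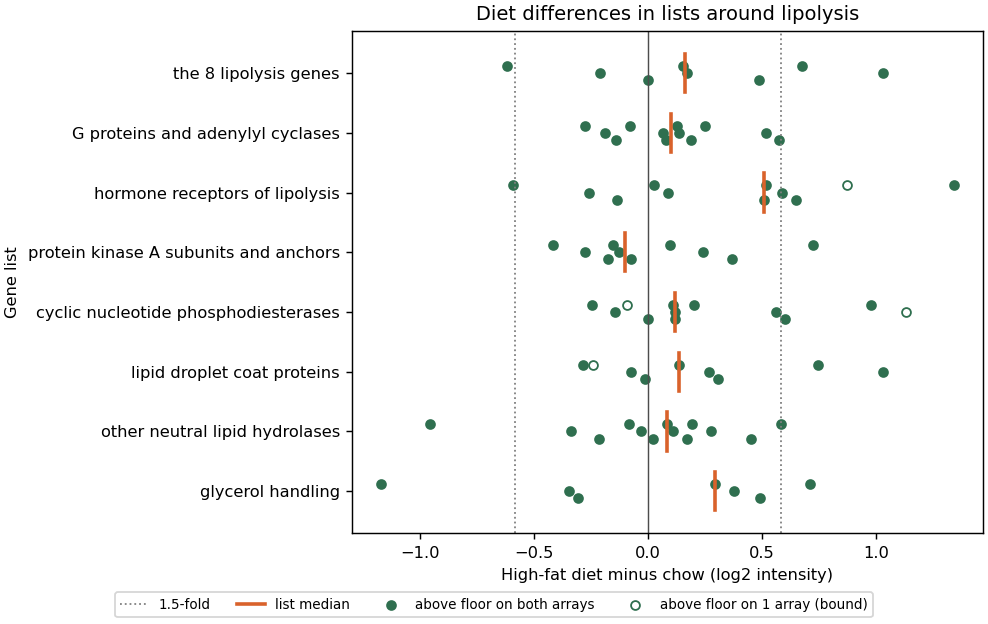
High-fat diet minus chow (log2 intensity) of each measured gene in the lipolysis group and in 7 lists around it; filled points are genes that cleared the floor on both arrays, open points bounds for genes above it on 1 array, and bars are list medians. The dotted lines mark 1.5-fold; the hormone receptors have the highest median, 0.51, and the kinase subunits the lowest, -0.10.

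The markers of the labelled tissue were bright on both arrays. The summed intensity of 8 measured mature adipocyte markers, led by Fabp4 and Adipoq, was 41804.0 under chow and 43430.5 under high fat. Their median difference was -0.0048, with 4 higher and 4 lower. Lep, the gene of leptin, was 1.55-fold higher. Slc2a4 differed by -0.50 and -0.69 in its 2 probe sets, and Pparg by -0.49. For 9 macrophage markers the sums were 6443.9 and 6559.7, with none at 1.5-fold or more. Of these 4 were higher and 5 lower, and the largest differences were Cd163 at 1.45-fold and Mrc1 at 1.35-fold lower. For 8 endothelial markers they were 2264.8 and 2178.4, with Flt1 1.51-fold lower. For 7 markers of progenitors and fibroblasts they were 9901.4 and 9786.6, with Dpt 1.54-fold higher and Pdgfra 1.58-fold lower. The brightest genes carry these sums. Mesothelial markers, from the lining of the pad, differed most, with sums of 1531.6 and 1119.6 over 7 genes. Of the 7 genes 4 were 1.5-fold or more lower, beside 6.4% of all measured genes. Krt19 at 1.99-fold and Wt1 at 1.80-fold led these, while Msln and Krt8 were higher by 0.45 and 0.34. Lymphocyte markers were dim, with sums of 439.7 and 459.9 over the 8 named genes and Cd79b at least 1.80-fold lower, and so were brown adipocyte markers, with sums of 335.7 and 420.1 over 8 genes. Of 6 measured brown adipocyte genes 4 were higher and 2 lower. At 1.5-fold or more, 2 were higher, beside 5.82% of all measured genes. These were Elovl3 at 1.83-fold, from 29.6 close to the chow floor, and Cox8b at 1.80-fold. Dio2 differed by -0.50 and -0.31 in its 2 probe sets above the floor. Cidea cleared the floor on chow alone, at 33 and 6.5. Ucp1, the gene that defines the type, was below the floor at 4.2 and 4.5. Of the 5 named epididymis genes 3 were measured, none above 75.7 on either array, with Lcn8 1.67-fold lower. No named marker was at 0. What part these cells have in the lipolysis differences was not tested.

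The lipolysis differences were recomputed under 9 alternatives for the scale, the floor and the probe set. Prkar2b and Aqp7 were higher on the high-fat diet, and Abhd5 lower, in all 10 settings, although the floor alone cannot move genes this far above it. Lipe, Pde3b and G0s2 have 1 measured probe set each, so 5 of the 9 alternatives left their values as they were, and the other 4 kept their signs. Prkar2b stayed between 0.58 and 0.68. Aqp7 ranged from 0.59 to 1.07 and Abhd5 from -0.72 to -0.30. The signs of Pnpla2 and Mgll changed as described above.

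**Figure D4:**
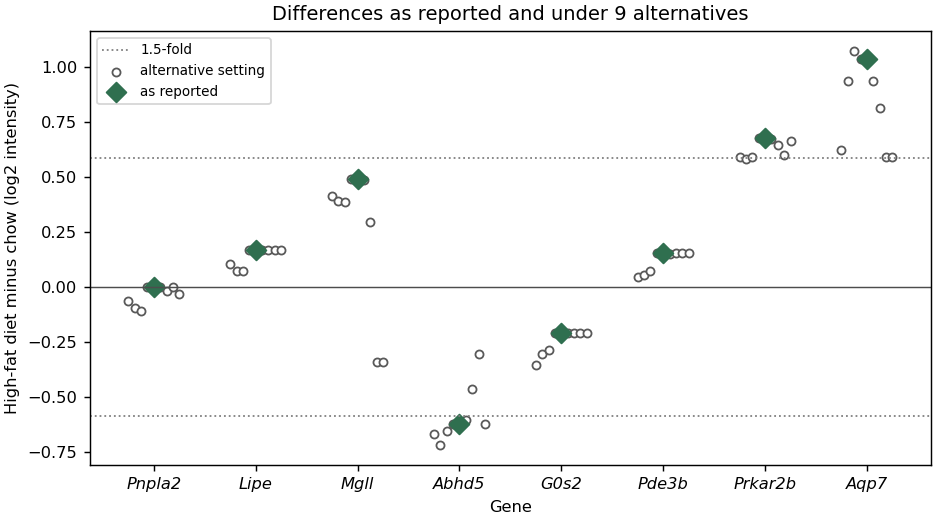
High-fat diet minus chow (log2 intensity) for each of the 8 genes as reported (diamonds) and under each of 9 alternatives (open circles), with dotted lines at 1.5-fold. Prkar2b keeps a narrow range of 0.58 to 0.68, whereas Mgll has 2 settings at -0.34, those in which its dim probe set stands for the gene.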

How the data were processed

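The deposited intensities, 1 linear value per probe set and array, were made by the authors from Trizol-extracted RNA labelled for an Affymetrix array, per the labels' protocols. How probes were summarised and scaled is not given in the sources used here. Trimmed means (2% at each end) were 99.6 and 99.6 and the median log2 difference was -0.028, so no centring was applied. The platform annotation of 2016 gave 1 symbol to 34945 probe sets, several to 932 and none here to 9160, and 34741 matched RefSeq by gene ID. Values under each array's 40th percentile were raised to it before log2. A gene was its measured probe set of highest mean log2. A difference was counted at 1.5-fold or more, also at 2-fold, with no test. A bound is written as at least N-fold. The code was tested on simulated data with known folds. Those folds were larger than the ones reported here and the noise was below the probe SD, so calls near 1.5-fold were not tested.

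The genes and lists were chosen with earlier results of these data known. All lipolysis genes with every probe set were named. In each list around them, the genes at 1.5-fold or more were named, or the largest difference where there was none, with the direct partners Plin1, Cidec, Gk, Adrb1, Adcy3, Prkaca, Pck1 and Npr3. For marker lists up to 2 genes were named. Msln, Krt8, Adipoq, Slc2a4, Pparg, Dio2, Cidea, Lpl, Aqp1, Aqp3, Aqp9, Aqp11, Prkar1a, Prkar1b, Prkar2a, Fabp4 and Ucp1 were added after their values were seen. Python 3.11.15, pandas 2.3.3, scipy 1.17.1 and statsmodels 0.14.6 were used. The number of arrays limits the precision.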

Additional observations from a re-analysis of the deposited data

How the results depend on the processing

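With 1 array per diet, no replicate could be left out, and movement was judged against the probe SD of 0.32 (divided by the square root of the number of genes for medians). Of 162 values under alternatives 25 moved by more than their yardstick and 0 called values reversed, and 17 of those that moved were medians of the lists around the pathway. The Aqp7 difference was 0.62 after quantile normalization, which made the other probe set the brighter, and 0.59 with plain probe sets or the probe set of smallest difference. The Mgll difference was -0.34 with plain probe sets and with the least different probe set, which both take its dim probe set. Centring on reference genes left 1 gene at 1.5-fold or more higher, as Prkar2b came to 0.58. The mean of probe sets and the probe set of smallest difference left 0 genes at 1.5-fold or more lower, as Abhd5 came to -0.46 and -0.30. Over all measured genes, 818 were 1.5-fold or more higher and 900 lower, against 559 and 1354 after centring on reference genes, 1639 and 1754 with the floor at the 20th percentile, and 391 and 425 with it at the 60th. Lists with under 3 measured genes were not recomputed. No paired analysis was possible because each diet had 1 array.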

Other observations

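Further genes near the pathway were picked after their values were seen. Those described below were all higher on the high-fat diet. Others in the same lists were lower in each probe set above the floor on both arrays. Among them were Insr, the insulin receptor, at -0.26 and -0.23, and Akap1, an anchor of protein kinase A, at -0.42 and -0.43. Pde7a, a phosphodiesterase specific for cyclic AMP, was above the floor on both arrays in 7 probe sets and higher on the high-fat diet in all 7. The probe set used for the gene read 109.9 under chow and 162.1 under high fat, 1.47-fold higher. Over the 7 the differences ran from 0.21 to 1.37, and 4 were 1.5-fold or more higher. Gnai1, an inhibitory G protein subunit that restrains adenylyl cyclase, was higher in 3 of 3 probe sets, from 2686.7 to 3198.2 in the brightest, a difference of 0.25. Ffar2, a receptor of short-chain fatty acids that restrains lipolysis, was higher in both of its probe sets, from 314 to 449.8 and from 195.5 to 269.8. Hcar2, the niacin and ketone body receptor with the same effect, read 81.1 and 115.3 in its only probe set, 1.42-fold higher. Its relative Hcar1, the lactate receptor, read 213.1 and 226.1, a difference of 0.09.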
